A study of Arabidopsis thaliana with 18 samples.

Results

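The comparison set seedlings of the elf3-7 mutant of Arabidopsis thaliana against wild type (Columbia), both grown at 23 °C. Its members were chosen by the sample titles, 3 arrays titled elf3-7 at 23 °C and 3 titled WT at 23 °C, which are 6 of the 18 arrays in the series. The series holds wild type, elf3-7 and tfl1-1 seedlings, each at 16 °C and at 23 °C, and its title places it in the study of how ambient temperature regulates flowering time. Every genotype at each temperature, 6 groups in all, was sampled in replicates A, B and C, with RNA prepared separately for every sample. Seeds were plated on MS agar after cold treatment in the dark. Whole seedlings were collected at 10 days under continuous cool-white fluorescent light of 80 µmol per second and square metre, the same for both genotypes. The sources used here give neither the hour of harvest nor the genetic background of the mutants. The 23 °C seedlings of tfl1-1, a mutant of another flowering regulator, and the 16 °C seedlings of wild type and elf3-7 served for comparison.

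ELF3 (EARLY FLOWERING 3) is a scaffold protein of the evening complex of the plant circadian clock. With ELF4 and LUX it represses genes of the clock and of growth during the evening and night, and plants without a working ELF3 lose clock rhythms under continuous light and flower early. One gene held down by the complex is GIGANTEA (GI), an evening-phased gene whose protein acts in the clock and promotes flowering through CONSTANS and FT.

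RNA abundance was read on ATH1 arrays, and values are log2 after RMA, so that a difference of 1 is a 2-fold difference. Of the 22746 probe sets tested, 13513 named exactly 1 gene in the array annotation, 503 named several and 8730 (38.4%) named none here. Only 1580 carried a gene symbol, and 11933 carried a locus code alone. A probe set is called below when its Benjamini-Hochberg adjusted p in limma, over all 22746, was under 0.05. ELF3 and TFL1 were the name of no probe set here, which leaves the genotypes without a check on the mutated genes. CCA1, LHY and COR28 were not analysed here by name either. A probe set given here by its ID or by a locus code may still measure one of them. As checks of the tissue, the light-harvesting genes LHCB4.1, LHCB4.2 and LHCB4.3 averaged 11.2 to 11.6 on the 6 arrays, and the root-borne beta-glucosidase PYK10 stood between 11.48 and 12.08. CLV3, a gene of the shoot meristem's centre, was between 3.13 and 3.49, which is near the level of the bacterial controls on the replicate A and B arrays.

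The replicate C arrays stood apart from the others in all 6 groups. The bacterial control probe sets averaged 5.70 ± 0.73 (SD, n = 6) on the replicate C arrays and 3.21 ± 0.04 (SD, n = 12) on the replicate A and B arrays. They were highest on the elf3-7 array C at 23 °C, at 6.67, and lowest among the C arrays on the wild type array C at 23 °C, at 4.81. For actin and GAPDH, controls that report how intact the labelled RNA is, the 3′ signal exceeded the 5′ signal by 2.28 ± 0.34 on the C arrays and by 1.28 ± 0.14 on the others. The fit carried a term for replicate C, as planned for the comparison. Replicate C itself differed from A and B at 5980 probe sets. Across all probe sets, the elf3-7 minus wild type difference in replicate A correlated with that in replicate B at r = 0.49. The same differences correlated at r = -0.19 between A and C and at r = 0.00029 between B and C. These are correlations across genes, which are not independent. The differences in each correlation share no array, but the correlations reuse the same 6 arrays. Below, the difference in A and B and the difference in C are given beside the pooled value.

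At 23 °C, 11 probe sets were called between elf3-7 and wild type, 0.0484% of those tested. GI and AT1G76960 were the 2 higher in elf3-7 (0.00879%), and 9 were lower (0.0396%). Of the 11, 8 differed at least 2-fold. The largest drop, of AT1G43590, was 5.06-fold, and the largest rise, of GI, was 3.59-fold. In whole seedlings, a change in RNA per cell and a change in the share of the cells that hold it cannot be told apart. Each of the 11 had the same sign in replicates A, B and C, and in 10 of them the 3 elf3-7 arrays did not overlap the 3 wild type arrays, which held for 4.3% of all probe sets on the higher side and 4.39% on the lower. Of the 11, 6 named 1 gene, and 5 of these genes have a locus code only. A further 4 named no gene here and are given by their probe set ID, and 1 named several genes.

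GI rose in elf3-7. It stood at 7.37, 7.45 and 6.64 in wild type replicates A, B and C, and at 9.11, 8.93 and 8.95 in the same replicates of elf3-7. All elf3-7 arrays lay above all wild type arrays, and the elf3-7 arrays lay closer together. The difference was 1.84 ± 0.18 (SE, n = 3 per group, adjusted p = 0.00054, limma), with 1.61 in replicates A and B and 2.32 in replicate C. The SE, here and below, rests on the spread estimated over all 18 arrays. In a fit of the 6 arrays of the comparison alone, GI was not called (adjusted p = 0.12, limma). At 16 °C the GI difference was 1.39 (adjusted p = 0.0029), from 7.51 to 7.73 in wild type and from 8.95 to 9.11 in elf3-7. The GI difference at 23 °C exceeded that at 16 °C by 0.45 (adjusted p = 1.0). In tfl1-1 at 23 °C GI stood at 7.91, 8.27 and 7.89, between the other genotypes. It was 0.87 above wild type there (adjusted p = 0.086), and elf3-7 was 0.97 above tfl1-1 (adjusted p = 0.025).

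The other rise, of AT1G76960, was 1.22 ± 0.18 (SE, adjusted p = 0.020, limma). Wild type stood at 4.60, 4.87 and 5.62 and elf3-7 at 6.21, 6.22 and 6.31. The elf3-7 arrays were nearly level, while the wild type array C was the highest of its group, so that the difference was 1.48 in A and B and 0.69 in C. At 16 °C the AT1G76960 difference was 0.90 (adjusted p = 0.041), with both genotypes lower, at 3.33 to 3.58 in wild type and 4.1 to 4.53 in elf3-7. This call was held in 1 of the 6 fits that left out 1 of the arrays, that without wild type array C, and was lost without the term for replicate C (adjusted p = 0.15). The call was also lost in the fit of the 6 arrays alone (adjusted p = 0.46).

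**Figure D1:**
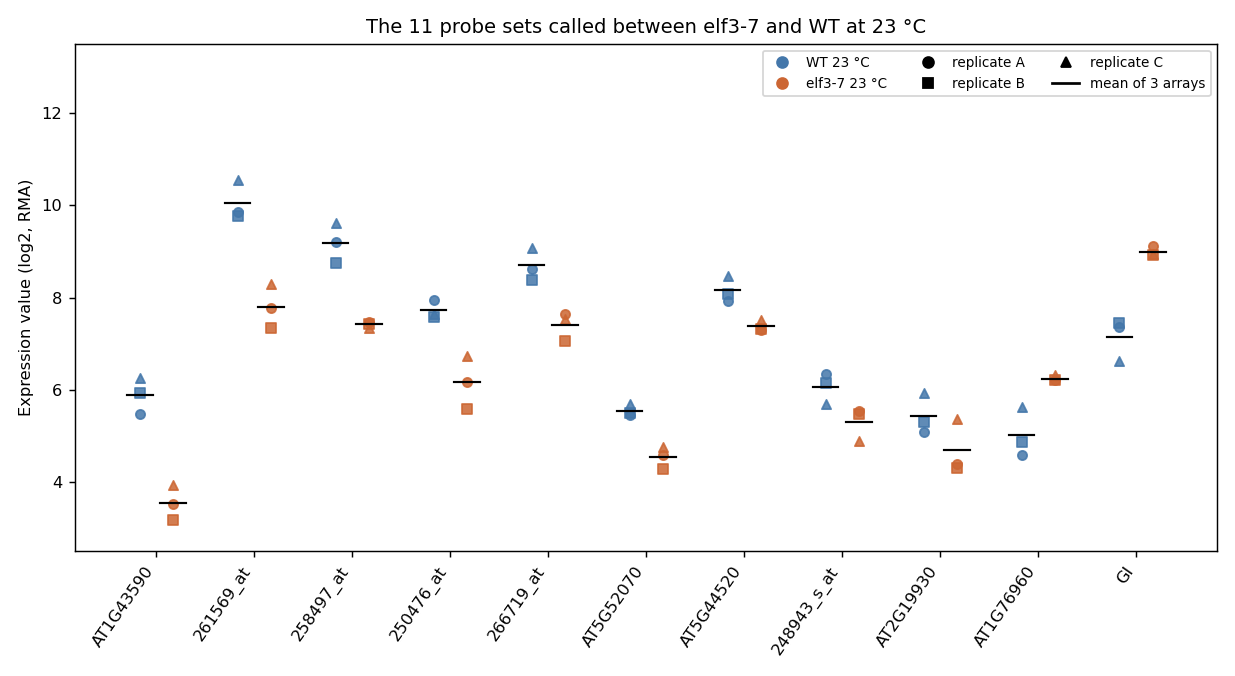
Expression value (log2, RMA) on each of the 6 arrays for the 11 called probe sets, ordered by difference. Points are single arrays, with circles, squares and triangles for replicates A, B and C, and bars are means of 3 arrays. Among the 11, the groups overlap for AT2G19930 alone, and GI in elf3-7 stays within 8.93 to 9.11.

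Among the 9 lower probe sets, AT1G43590, a locus that RefSeq lists as a pseudogene, had the lowest p. It stood at 5.49, 5.92 and 6.25 in wild type and at 3.53, 3.18 and 3.93 in elf3-7. On elf3-7 arrays A and B it was near the level of the bacterial controls, so that the fold may be limited by background. On elf3-7 array C those controls averaged 6.67, above the AT1G43590 value, and give no background level. The difference was -2.34 ± 0.19 (SE, adjusted p = 0.00016, limma), with -2.35 in A and B and -2.32 in C. It was -1.34 at 16 °C (adjusted p = 0.0058). AT1G43590 was also the only one of the 11 called between tfl1-1 and wild type at 23 °C, where 0.141% of probe sets were, at -1.41 (adjusted p = 0.014), and elf3-7 differed from tfl1-1 by -0.93 (adjusted p = 0.033).

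The 4 probe sets with no gene name here fell by 1.28 to 2.25 on the log2 scale. Probe set 261569_at stood at 9.85, 9.77 and 10.56 in wild type and at 7.78, 7.34 and 8.31 in elf3-7, a difference of -2.25 ± 0.20 (SE, adjusted p = 0.00023, limma). Probe set 258497_at stood at 9.21, 8.75 and 9.62 in wild type and at 7.48, 7.44 and 7.35 in elf3-7, a difference of -1.77 ± 0.21 (SE, adjusted p = 0.0040, limma). In both, the highest elf3-7 array was more than 1 log2 unit below the lowest wild type array. Probe set 250476_at stood at 7.96, 7.59 and 7.64 in wild type and at 6.18, 5.58 and 6.73 in elf3-7, a difference of -1.56 ± 0.22 (SE, adjusted p = 0.013, limma). Its drop was -1.89 in A and B and -0.91 in C, where the elf3-7 array was the highest of its group. The 250476_at call held in 2 of the 6 fits that left out 1 array, and the adjusted p reached 0.10 without wild type array A. Probe set 266719_at stood at 8.62, 8.39 and 9.08 in wild type and at 7.65, 7.06 and 7.55 in elf3-7, a difference of -1.28 ± 0.18 (SE, adjusted p = 0.011, limma). The 266719_at call also held in 2 of these 6 fits, with an adjusted p from 0.054 to 0.094 in the other 4, and it was lost in replicates A and B alone (adjusted p = 0.093). The 258497_at call held in all 6 and was lost in A and B alone (adjusted p = 0.070). In the fit of the 6 arrays alone, 261569_at kept its call (adjusted p = 0.035, limma). There the calls of 258497_at, 250476_at and 266719_at were lost (adjusted p = 0.25, 0.51 and 0.41).

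Of these unnamed probe sets, 266719_at differed most in size between temperatures. At 16 °C it stood at 8.21 to 8.53 in wild type and at 5.63 to 5.84 in elf3-7, a difference of -2.70 (adjusted p = 6.4e-06). The test of the 2 differences gave 1.42 with an adjusted p of 0.17, so it was not called. The 261569_at difference was -2.81 at 16 °C, the 258497_at difference -1.76 and the 250476_at difference -1.57, each called there too. In tfl1-1 at 23 °C the 4 stood within 0.30 of wild type and were not called, and elf3-7 lay below tfl1-1 in each (adjusted p from 0.00094 to 0.013).

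The remaining genes with a locus code fell by less. AT5G52070 stood at 5.45, 5.50 and 5.70 in wild type and at 4.59, 4.3 and 4.76 in elf3-7, a difference of -1.0 ± 0.13 (SE, adjusted p = 0.0059, limma). AT5G44520 stood at 7.93, 8.08 and 8.47 in wild type and at 7.30, 7.32 and 7.52 in elf3-7, a difference of -0.78 ± 0.10 (SE, adjusted p = 0.0085, limma). Neither had overlapping arrays. Both calls were lost without elf3-7 array B (adjusted p = 0.0585 in each), that of AT5G52070 also without the term for replicate C (0.21) and that of AT5G44520 in A and B alone (0.075). Both were lost in the 6 arrays alone too (adjusted p = 0.32 for AT5G52070 and 0.41 for AT5G44520). In tfl1-1, AT5G52070 was 0.48 above wild type (adjusted p = 0.16), and elf3-7 differed from tfl1-1 by -1.49 (adjusted p = 0.00021).

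AT2G19930 is named after its values were seen, since its arrays overlapped. It stood at 5.09, 5.30 and 5.92 in wild type and at 4.4, 4.3 and 5.38 in elf3-7, a difference of -0.75 ± 0.12 (SE, adjusted p = 0.046, limma). The call was lost when the replicate letter was a block (adjusted p = 0.073) and when any 1 of the 6 arrays was left out. Without the term for replicate C its adjusted p was 0.98, and the call held in 2 of 15 alternative settings. Probe set 248943_s_at, which names several genes, fell by 0.75 on the log2 scale (adjusted p = 0.011, limma), from 6.34, 6.15 and 5.69 to 5.54, 5.48 and 4.90. Its replicate C arrays were the lowest of both groups, and its adjusted p was 0.80 without the term for replicate C. Its call was also lost in A and B alone (adjusted p = 0.095) and in 4 of the 6 fits that left out 1 array (0.060 to 0.096). In the 6 arrays alone the adjusted p of 248943_s_at was 0.41.

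All 11 probe sets had the same sign at 16 °C, where 9 were called, against 0.554% of all probe sets. The exceptions were 248943_s_at (-0.39, adjusted p = 0.14) and AT2G19930 (-0.48, adjusted p = 0.11). All 11 also differed between elf3-7 and tfl1-1 at 23 °C (adjusted p under 0.05), a comparison in which 2.67% of probe sets were called. The elf3-7 minus wild type and elf3-7 minus tfl1-1 differences share the elf3-7 arrays. The comparisons at 23 °C and 16 °C share no array, but they use the same estimate of the spread for each probe set. A low spread favours a call at both temperatures.

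**Figure D2:**
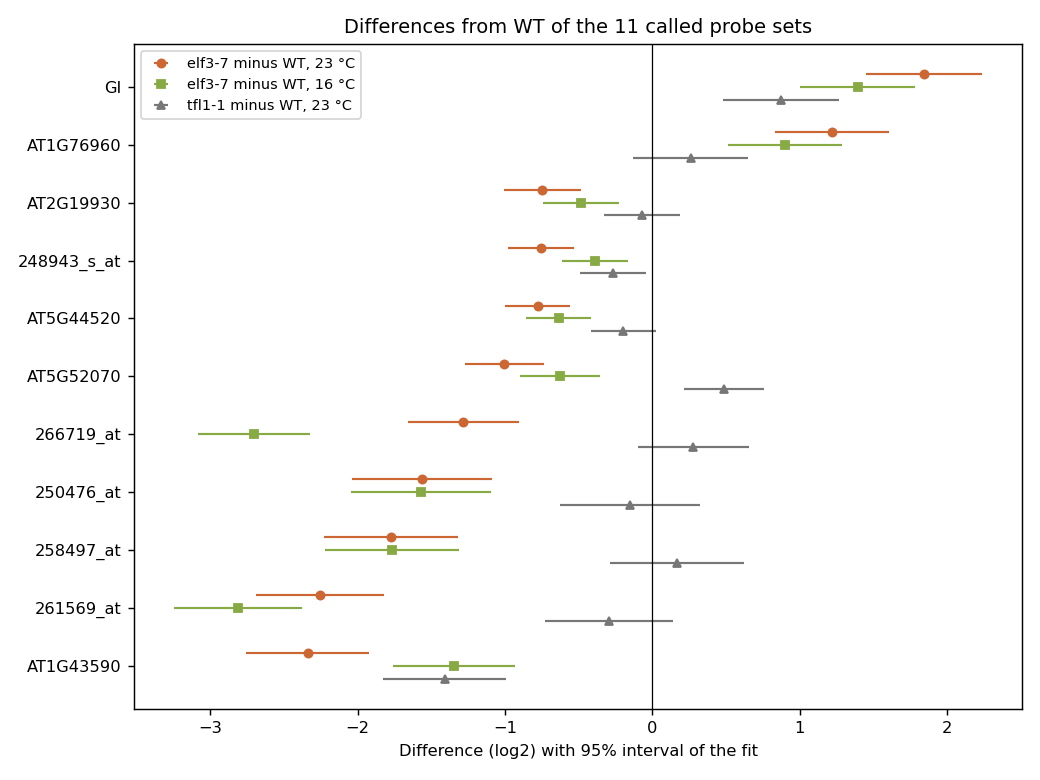
Differences from wild type (log2, horizontal axis) of the 11 called probe sets, with 95% intervals of the fit. Circles are elf3-7 at 23 °C, squares elf3-7 at 16 °C and triangles tfl1-1 at 23 °C; AT1G43590 at -1.41 and GI at 0.87 are the tfl1-1 values farthest from 0, and 266719_at has the widest gap between temperatures.

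At 16 °C the same comparison of genotypes called 126 probe sets (0.554%), 56 higher (0.246%) and 70 lower (0.308%). Of these, 109 had the same sign at 23 °C, 42 had arrays that did not overlap in that direction (4.3% of all probe sets higher, 4.39% lower), and 9 were called (0.0484% of all). The median size of the difference in the 126 was 0.92 at 16 °C and 0.36, in the 16 °C direction, at 23 °C. The 126 were chosen by their 16 °C values, which favours a larger size there. A low value of the shared spread also favours calls at both temperatures. The direct test of whether the genotype difference changed with temperature called 0 probe sets in limma, and 866 (3.81%) had an unadjusted p under 0.05. The lowest p among named genes was that of CYP71B26, a cytochrome P450, with 0.28 at 23 °C and -1.30 at 16 °C (adjusted p of the change 0.17). It was followed by AT5MAT, which adds malonyl groups to anthocyanins, with 0.03 at 23 °C and 1.42 at 16 °C (adjusted p of the change 0.28).

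With and without a call, 147 probe sets differed by at least 1 on the log2 scale, of which 111 were higher and 36 lower in elf3-7, and 8 of them were called. In 80 of the 147 the arrays of the genotypes did not overlap, against 8.69% of all probe sets in either direction, a measure that rises with the size of the difference. The 111 had a median difference of 1.74 in replicates A and B and of 0.53 in replicate C, and 27 of them reached 1 in replicate C. Wild type array A was the lowest of its group in 66 of the 111, against 35.7% of all probe sets. The 36 had a median of -1.75 in A and B and of -0.33 in C. For 93.1% of all probe sets the 95% interval of the difference lay within 1 on either side of 0, and the median half-width was 0.30.

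**Figure D3:**
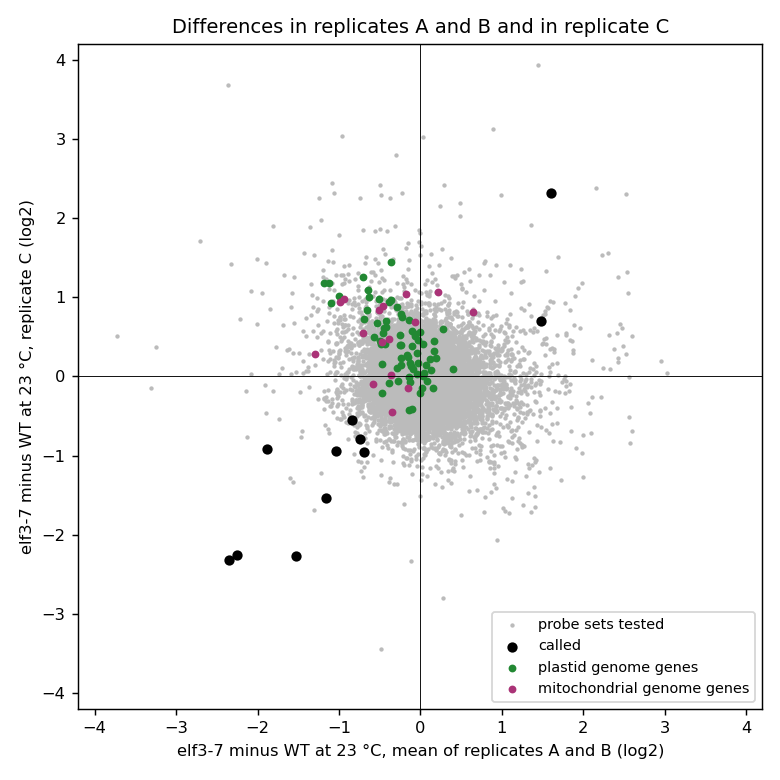
Difference between elf3-7 and wild type at 23 °C in replicate C (vertical, log2) against the mean of replicates A and B (horizontal, log2), 1 point per probe set. The 11 called probe sets have the same sign on both axes, while most plastid (green) and mitochondrial (purple) genome genes lie below 0 in A and B and above 0 in C.

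The list of evening clock genes had 20 members, of which 4 were named here, and GI was the one called. COR27, a cold-induced gene that also acts in the clock, stood at 8.40, 7.45 and 5.89 in wild type and at 6.88, 6.33 and 6.77 in elf3-7. Its difference of -0.59 (adjusted p = 0.76, limma) was -1.32 in A and B and 0.88 in C, and the wild type arrays spanned more than the elf3-7 arrays. AT4G33980 had the same split, with -1.22 in A and B and 0.34 in C. AT1G69570 stood at 6.59, 5.62 and 5.72 in wild type and at 7.37, 7.36 and 6.92 in elf3-7. Its arrays did not overlap and its difference of 1.24 was alike in A and B (1.26) and in C (1.20), but its adjusted p was 0.35. At 16 °C the AT1G69570 difference was 0.26. The sole named member of the morning list, AT5G52660, differed by -0.19 (adjusted p = 0.79). Probe sets with no gene name, 4 called ones among them, entered no list. The values of named members therefore do not describe a whole list.

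In the other lists no member was called, and across all 22 lists 1 of the 59 named genes was. With 0.0484% of all probe sets called, the lack of calls says nothing about the lists. All probe sets had a median difference of -0.0026, with 11227 above 0 and 11519 below. HYH, a bZIP factor related to HY5, was the one named gene of light signalling. It stood at 7.48, 7.21 and 7.42 in wild type and at 7.13, 6.58 and 7.18 in elf3-7, without overlap, and its difference was -0.41 (adjusted p = 0.59). The 4 growth, shade and auxin genes lay between 0.06 and 0.16. These were EXPA8, an expansin (0.06), GH3.3, which conjugates auxin (0.11), YUC2, which makes auxin (0.12), and IAA29, an auxin-response repressor (0.16). The 95% interval for YUC2 ran from -0.15 to 0.40.

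The flowering list had 26 members, of which 5 were named here. These 5 had differences from -0.41 to 0.67, all with overlapping arrays. A probe set given here by its ID alone may measure another member of the list. SMZ and SNZ, repressors of flowering of the AP2 family, differed by -0.41 and -0.24. FD, the partner of FT at the shoot tip, was near background at 3.29 to 3.71 on the 6 arrays and differed by -0.17. AGL24, a MADS-box promoter of flowering, differed by 0.14. ATC, a relative of TFL1, stood at 5.23, 4.60 and 4.64 in wild type and at 5.75, 6.31 and 4.40 in elf3-7, so that its 0.67 was 1.12 in A and B and -0.24 in C.

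The gibberellin receptors GID1A, GID1B and GID1C differed by -0.31, -0.36 and -0.15, with intervals from -0.68 to 0.06, from -0.67 to -0.05 and from -0.53 to 0.22, and an adjusted p of 0.57 or more. The mitosis genes AUR1 and AUR2, which encode Aurora kinases, and KINESIN-12B, a motor of dividing cells, differed by 0.37, 0.24 and 0.45. Their median was 0.78 in A and B and -0.20 in C. On the wild type arrays AUR1 ran from 5.11 in replicate A to 6.89 in replicate C, a span wider than its difference.

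Among the 4 cold-response genes, the dehydrin LTI30 stood at 6.85, 6.29 and 6.41 in wild type and at 7.66, 8.05 and 6.29 in elf3-7. Its difference of 0.82 was 1.28 in A and B and -0.12 in C. COR47, another dehydrin, differed by 0.26, and the chloroplast proteins COR15A and COR15B by -0.23 and -0.41, with -1.21 and -0.98 in replicate C.

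The 6 flavonoid and anthocyanin genes had a median difference of 0.16, which was 0.42 in A and B and -0.52 in C. DFR, an early enzyme of the anthocyanin branch, stood at 3.64, 5.69 and 6.63 in wild type and at 4.70, 6.71 and 4.94 in elf3-7. Within each group the arrays spanned about 2 log2 units or more, and the DFR difference of 0.13 had an SE of 0.67. At 16 °C the median difference of the 6 genes was 1.06. AT5MAT and AT4G14090 were called there, at 1.42 and 1.89 (adjusted p = 0.0027 and 0.0062), while at 23 °C they differed by 0.03 and 0.18. The change between temperatures was not called for either gene.

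Of the genes of light-harvesting proteins, LHCB4.1 differed by -0.06 and LHCB4.2 by 0.07, and LHCB4.3 by 0.47 (adjusted p = 0.63). Of 2 chlorophyll synthesis genes, CHLM differed by -0.23 without overlap and PORB by 0.48 with overlap. Of 4 starch genes, DPE1, a plastid enzyme of starch breakdown, differed by -0.40, APL4 by -0.25, PWD by -0.03 and APL3 by 0.05. The 3 glucosinolate genes BCAT4, UGT74B1 and AT2G31790 differed by 0.54, 0.29 and 0.02, with a median of 0.58 in A and B and -0.29 in C.

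In the jasmonate list, JMT, which methylates jasmonate, stood at 3.20, 3.88 and 3.91 in wild type and at 4.44, 4.16 and 4.15 in elf3-7, without overlap, and differed by 0.58 (adjusted p = 0.67). PDF1.2 and PDF1.2b, defensins induced by jasmonate, differed by 0.38 and -0.22, each with an SE near 0.7 on arrays spread over about 2 log2 units. THI2.1 and LCR67 differed by 0.14 and 0.03, and SAG101, of the salicylic acid list, by -0.04. Of the 5 heat shock and cochaperone genes, Hop3 differed by -0.21, AT1G53540 by -0.21, Fes1A by -0.12 and ATHSP22.0 by 0.10. AT5G48570, for which RefSeq gives the synonym ROF2, stood at 7.60 on the elf3-7 array C and between 4.84 and 5.48 on the other 5. Its difference of 0.62 was -0.23 in A and B.

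SAG29, a sugar transporter gene of senescence, was the closest to a call among uncalled list members. It stood at 5.33, 5.05 and 5.46 in wild type and at 6.24, 6.60 and 6.33 in elf3-7. Every elf3-7 array lay above every wild type array, and the difference was 1.11 ± 0.25 (SE, adjusted p = 0.27, limma), with 1.23 in A and B and 0.87 in C. At 16 °C the SAG29 difference was 1.99 (adjusted p = 0.0025), and at 23 °C elf3-7 was higher than tfl1-1 (adjusted p = 0.033).

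The 3 root markers, PYK10 and the root hair expansins EXPA7 and EXPA18, had differences of 0.32, 0.70 and 0.76, none called. Their mean level was 6.20, 6.41 and 6.16 in wild type replicates A, B and C and 6.69, 7.48 and 6.38 in elf3-7. The shift came mainly from elf3-7 array B, on which EXPA7 and EXPA18 were at 5.10 and 5.26 against 3.39 to 4.22 on the other 5 arrays. The part of root content in the other differences was not tested. The lists of nitrate assimilation, dark and sugar starvation and seed storage had no member named here.

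**Figure D4:**
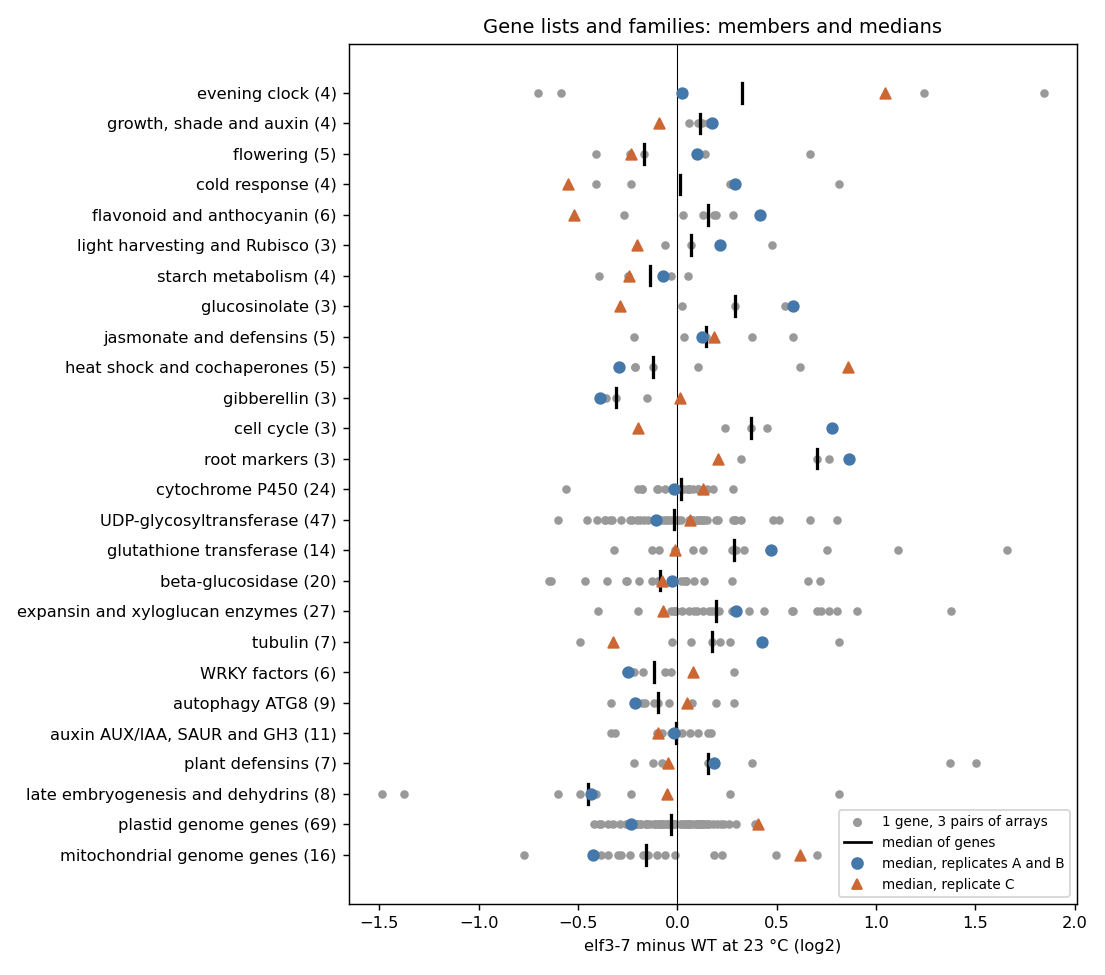
Difference between elf3-7 and wild type at 23 °C (log2) for gene lists and families with at least 3 named genes (number in brackets). Grey points are genes, black bars their median, circles the median in replicates A and B and triangles that in replicate C; the 2 medians have opposite signs in many lists, plastid genome genes (-0.23 and 0.40) among them.

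Gene families taken by symbol gave no called member either, again beside 0.0484% of all probe sets. Of 27 expansin and xyloglucan enzyme genes, which loosen or remodel cell walls, 21 lay above 0 and 6 below, with a median of 0.19 (0.29 in A and B, -0.07 in C), and 4 of the 27, all higher, had arrays that did not overlap, against 4.3% of all probe sets on the higher side. XTH19 stood at 5.37, 6.13 and 5.65 in wild type and at 7.34, 7.33 and 6.60 in elf3-7, a difference of 1.38 ± 0.32 (SE, adjusted p = 0.27, limma) that was positive in all 3 replicates. Others of the family turned with the replicate: EXLB1 differed by 2.0 in A and B and by -1.28 in C, and EXPA4 by 1.39 and -1.04. At 16 °C the XTH19 difference was 0.21.

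Of 14 glutathione transferase genes, which attach glutathione to toxic compounds, 10 lay above 0. The largest was GSTU25, at 4.66, 3.39 and 3.28 in wild type and at 5.22, 6.70 and 4.40 in elf3-7. Its difference of 1.66 had an adjusted p of 0.48 and its arrays overlapped. GSTU22 followed with 1.11, and GSTU20 differed by 1.4 in A and B and by -1.4 in C. Of 47 UDP-glycosyltransferase genes, 22 lay above 0 and 25 below, and 7 had arrays that did not overlap (5 higher, 2 lower), against 8.69% of all probe sets in either direction. The 24 cytochrome P450 genes had a median of 0.02 and the 20 beta-glucosidase genes one of -0.09.

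Of the 7 defensin genes, PDF2.1 and PDF2.5 differed by 1.5 and 1.37 (adjusted p = 0.59 and 0.57). PDF2.5 stood at 3.15, 4.14 and 3.82 in wild type and at 4.81, 6.06 and 4.35 in elf3-7, without overlap, and PDF2.1 was -0.69 in C. The 7 tubulin genes had a median of 0.43 in A and B and of -0.33 in C, and TUB1 was 1.63 and -0.82. The 6 WRKY genes, the 9 autophagy ATG8 genes and the 11 auxin AUX/IAA and GH3 genes lay within 0.34 of 0. NAC014 differed by -0.32 and the peroxidase Prx37 by 0.54, each without overlap.

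Genes of late embryogenesis abundant proteins, known from drying seeds and drought, differed between the replicates. LEA18 stood at 7.10, 6.86 and 6.97 in wild type and at 4.82, 4.97 and 7.00 in elf3-7. The elf3-7 array C was at the wild type level, so that the LEA18 difference was -2.08 in A and B and 0.03 in C, and pooled it was -1.38 (adjusted p = 0.43, limma). Without elf3-7 array C it was -2.04 (adjusted p = 0.038). AtLEA4-1 had the same form, at 7.39, 7.07 and 7.10 in wild type and at 5.07, 5.11 and 6.92 in elf3-7, with a pooled difference of -1.49 (adjusted p = 0.42). HIS1-3, a linker histone induced by drought, stood at 8.01, 7.10 and 6.52 in wild type and at 6.41, 5.08 and 6.34 in elf3-7, a difference of -1.27 (adjusted p = 0.54). At 16 °C LEA18 and AtLEA4-1 differed by -2.85 and -2.22, and both were called there (adjusted p = 0.0059 and 0.037). The 8 genes of the late embryogenesis and dehydrin family had a median of -0.45, with 2 above 0 (LTI30 and COR47) and 6 below.

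The organelle genomes moved with the replicate. The 69 plastid genome genes had a median difference of -0.23 in A and B, where 55 lay below 0, and of 0.40 in C, where 58 lay above 0. The 16 mitochondrial genome genes had medians of -0.42 and 0.61. Pooled, the medians were -0.03 and -0.16, and no gene of either genome was called. The bacterial controls and the 3′ excess of actin and GAPDH, given above, were highest on the elf3-7 array C among the 6 arrays, and their part in these values was not tested.

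The genes with a symbol that had the largest differences without overlap were GI and 9 others on the higher side. FACT, which makes caffeate esters of fatty alcohols in root waxes, stood at 3.45, 4.61 and 4.99 in wild type and at 5.63, 5.69 and 5.93 in elf3-7, a difference of 1.4 (adjusted p = 0.46, limma). THI2.2, a thionin, stood at 10.08, 9.59 and 9.34 in wild type and at 11.32, 10.21 and 10.75 in elf3-7, a difference of 1.09 (adjusted p = 0.47). JAL22, a jacalin-related lectin, differed by 1.03, MT1C, a metallothionein, by 0.82, UGT72E2, which glucosylates lignin precursors, by 0.80 and TBL38 by 0.80. MT1C gave 0.82 both in A and B and in C. On the lower side, also without overlap, after AtLEA4-1 and HIS1-3, the differences were smaller. CYP71B29 differed by -0.56, PUB19, a U-box ubiquitin ligase, by -0.53, and MCCB, a subunit of the carboxylase of leucine breakdown, by -0.51. SFP2 (-0.50), PAHX (-0.47), TOPP7, a protein phosphatase (-0.47), SETH2 (-0.46) and ADCL, of folate synthesis (-0.45), followed. None of these 19 genes was called.

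**Figure D5:**
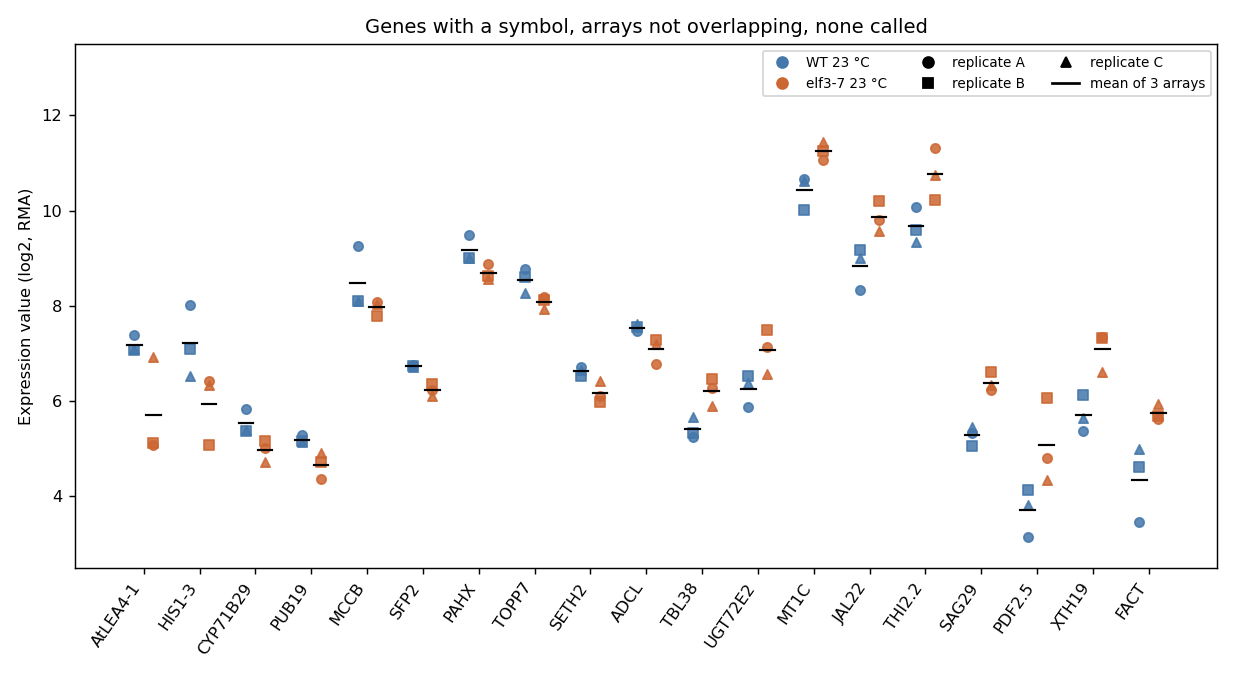
Expression value (log2, RMA) on each of the 6 arrays for the 19 uncalled genes with a symbol that had the largest differences among those with arrays that do not overlap. Points are single arrays, with circles, squares and triangles for replicates A, B and C, and bars are means of 3 arrays. In AtLEA4-1 the elf3-7 replicate C array lies near wild type.

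Among genes with a locus code only and arrays that did not overlap, AT5G38020 had the largest uncalled difference on the higher side. It stood at 4.34, 6.40 and 6.77 in wild type and at 7.72, 8.11 and 8.09 in elf3-7, a difference of 2.14 ± 0.68 (SE, adjusted p = 0.46, limma). AT5G38030, the next gene in the RefSeq order, differed by 1.72 and AT5G37990, with 4 genes between, by 1.79. In all 3 genes wild type array A was the lowest array by more than 1 log2 unit, and without it the AT5G37990 difference was 0.81. AT1G18980 stood at 4.70, 4.82 and 4.68 in wild type and at 6.88, 7.25 and 6.24 in elf3-7, with wild type arrays close together and a difference of 2.06 (adjusted p = 0.34). In replicates A and B alone AT1G18980 was called, at 2.31 (adjusted p = 0.0062). AT1G14960 and AT1G30870 followed among them with 2.03 and 1.85. Of the 10 largest such genes on the higher side, 9 had wild type array A as the lowest of its group (35.7% of all probe sets) and 8 had elf3-7 array B as the highest (32.7%).

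On the lower side, under the same limit, AT1G19530 stood at 9.01, 7.17 and 6.07 in wild type and at 5.42, 4.14 and 5.92 in elf3-7, a difference of -2.25 (adjusted p = 0.43) that was -3.31 in A and B and -0.14 in C. AT1G54870 differed by -1.68 (adjusted p = 0.36). AT5G26270 stood at 8.0, 7.75 and 7.38 in wild type and at 6.51, 6.30 and 6.62 in elf3-7, a difference of -1.24 (adjusted p = 0.15), with -1.47 in A and B and -0.77 in C. At 16 °C the AT5G26270 difference was -1.56 (adjusted p = 0.0086). AT1G68110 stood at 5.39, 5.21 and 5.15 in wild type and at 4.29, 4.19 and 4.21 in elf3-7, a difference of -1.02 (adjusted p = 0.47) alike in A and B (-1.06) and in C (-0.94). Of the 10 largest such genes on the lower side, AT1G43590 and AT5G52070 among them, 9 had elf3-7 array C as the highest of its group, against 39.2% of all probe sets.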

How the data were processed

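Total RNA of whole seedlings was hybridised to Affymetrix ATH1 arrays, 1 array per sample. The authors deposited log2 values per probe set made by RMA, per the submitters' processing notes, a method that corrects background, equalises the arrays' distributions and summarises probes, and the probe-level data were not analysed here. RMA compresses differences of dim probe sets. The 64 Affymetrix control probe sets were left out. Gene names came from the platform annotation dated 2016, updated through the RefSeq table of TAIR10.1. The test was limma 3.58.1 in R 4.3.3, with 6 group means and a replicate C term over 18 arrays, which then share 1 estimate of the spread, and Benjamini-Hochberg adjustment over 22746 probe sets. The script was checked on simulated data. The number of arrays limits the precision.

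Replicate letters were taken to pair arrays in the differences given per replicate and in the alternative fit with the letter as a block. The main fit had no term that separates A from B, so its p-values do not pair those arrays. Deviations from the group means correlated within letters (r = 0.27, 0.43 and 0.32 for A, B and C). The shift of replicate C is part of these correlations. For the A minus B differences within groups, which leave replicate C out, r was 0.34. No label calls replicate C a batch. The term was part of the plan of the comparison, and the control probe sets also set replicate C apart. Genes were named by rule: called, 1 gene, arrays not overlapping, the higher group mean at least 5, up to 14 per direction, plus up to 6 called members of each list (3 as values where none was called). The 10 genes per direction with the largest difference, with a symbol and with a locus code each, among those with arrays not overlapping and the higher group mean at least 5 (3 of these 40 genes were called), the families and the organelle genes were added after the values were seen. The members and lists were chosen with earlier results of these data known. Alternatives tried were no replicate C term, A and B only, the replicate letter as a block, other normalizations, a filter on dim probe sets, array weights, a trended and robust fit, the 6 arrays alone and each array left out.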

Additional observations from a re-analysis of the deposited data

How the results depend on the processing

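The 11 calls rest on 3 arrays per group, and dim probe sets near background limit what can be seen. The count was 7 without the replicate C term, 17 in replicates A and B only (6 of the 11 kept), 25 with array weights (all 11 kept) and 3 in the 6 arrays alone (2 kept). The cause of these changes was not tested, except that the 6 arrays alone leave fewer residual degrees of freedom. The higher calls numbered 1, 10, 9 and 1 in these settings, the lower calls 16 with array weights and 2 in the 6 arrays alone, and calls of at least 2-fold 16 in A and B and 3 in the 6 arrays alone. With the replicate block 10 of the 11 calls were kept, the loss being AT2G19930, and no other called probe set changed its call. Quantile normalization and equal array medians each gave 10, the dim filter and the trended and robust fit each 11. Leaving out 1 array gave 4 to 11 calls, with 1 to 4 higher, 3 to 10 lower and 4 to 8 of at least 2-fold. The lowest count, 4, came without elf3-7 array B, and 6 remained without wild type array A. AT1G43590 and 261569_at were called in all 15 settings with a test and GI in 14, the exception being the 6 arrays alone (adjusted p = 0.12). No called difference changed sign in any setting, replicate C alone included. The change of the genotype difference with temperature had 9 calls with array weights, 0 to 6 with 1 array left out (2 and 6 without elf3-7 array A and B at 23 °C) and 0 elsewhere. The elf3-7 minus tfl1-1 comparison, with 607 calls, had 51 without the replicate C term, 4087 in A and B, 4808 with array weights and 18 to 4307 with 1 array left out, the extremes being without elf3-7 array B and tfl1-1 array C. Of 343 uncalled genes followed, 5 were called in some setting, and 146 had the opposite sign in replicate C. The planned search of promoters for motifs was not run, as no promoter sequence was used here.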
